A study of Mus musculus with 2 samples.

Results

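The mouse immunoglobulin loci encode the heavy chain (Igh, chromosome 12) and the kappa and lambda light chains (Igk, chromosome 6, and Igl, chromosome 16) of antibodies. All 264 genes that GENCODE M21 types as immunoglobulin V, D, J or C genes were taken, of 55450 annotated genes on mm10. Igh held 113 V, 19 D, 4 J and 8 C genes, Igk held 102 V, 5 J and 1 C gene, and Igl held 3 V, 5 J and 4 C genes. DNase-seq, which maps DNA that the nuclease DNase I can cut, was run on whole thymus of male B6CASTF1/J mice aged 2 months. These are hybrids of C57BL/6J and CAST/EiJ with no treatment given, and the reference genome is that of C57BL/6J. Gene positions and sequences below were read from this reference, and whether they hold on the CAST/EiJ allele was not tested. The labels give 1 group of 2 samples, numbered as replicates 1 and 2 from separate animals, although both carry the same donor identifier. A single group allows no test between conditions, and the spread between the 2 replicates may in part be technical. Values below are counts, positions and scores of the immunoglobulin loci set beside the rest of the genome.

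B cells assemble an antibody gene by cutting and joining V, D and J segments with the RAG recombinase. Each V segment ends in a recombination signal, a heptamer and a nonamer separated by a spacer. T cells express the same recombinase but join T cell receptor genes, and complete heavy chain V rearrangement is known as a B lineage event, while D to J joining at Igh is known in thymocytes. CTCF, a DNA-binding protein that anchors chromatin loops, is known from B cell precursors to bind next to many heavy chain V segments and at both ends of the locus, where its sites help set the loops over which V segments are brought to the J segments.

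The regions at V segments described below lie around the 3′ end of the segment, so the 39 bases past the annotated end, which hold the recombination signal, are shown as examples chosen after the values were seen (mm10, all on the minus strand, which is the coding strand of Igh). They are shown for 1 segment of family 5 and 1 of family 14, and for 5 of family 1. Capitals mark the heptamer CACAGTG and the letters ACCACA, which are the RUNX word TGTGGT read on the other strand. RUNX1 and RUNX3 are transcription factors of lymphocytes.
Ighv5-17, chr12:113859110-113859148: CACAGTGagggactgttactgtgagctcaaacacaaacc
Ighv14-2, chr12:113994430-113994468: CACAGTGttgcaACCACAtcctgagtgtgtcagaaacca
Ighv1-85, chr12:115999989-116000027: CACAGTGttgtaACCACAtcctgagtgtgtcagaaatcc
Ighv1-54, chr12:115193636-115193674: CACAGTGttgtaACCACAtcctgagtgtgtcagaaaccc
Ighv1-23, chr12:114764411-114764449: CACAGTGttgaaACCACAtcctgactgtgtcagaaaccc
Ighv1-16, chr12:114665833-114665871: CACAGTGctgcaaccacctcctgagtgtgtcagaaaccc
Ighv1-26, chr12:114788333-114788371: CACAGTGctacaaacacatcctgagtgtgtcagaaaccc
The word starts at base 13 past the segment in Ighv14-2, Ighv1-85, Ighv1-54 and Ighv1-23, inside the spacer. It is missing from Ighv1-16 and Ighv1-26 and from Ighv5-17. Each replicate has a strict and a looser list of peaks. By the strict lists of both replicates, the first 4 of these segments had an accessible region at their 3′ end and the other 3 had none. By that rule the word occurred with and without a region. However, Ighv1-23 had a strict peak in replicate 1 alone and a region in the looser lists of both (0.356 in replicate 1 and 0.298 in replicate 2). Ighv1-16 and Ighv1-26 had no strict peak in either replicate and no shared looser region within 1000 bp.

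The other kind of site is shown by 2 whole regions (minus strand, the CTCF core match in capitals, and in Ighv5-17 also the heptamer). The region at Ighv5-17 holds the recombination signal followed by an exact match. The region upstream of Ighv1-67 holds an exact match and is centred at -1230.5 bp from the 3′ end of that segment, before its start.
Ighv5-17, chr12:113858981-113859180: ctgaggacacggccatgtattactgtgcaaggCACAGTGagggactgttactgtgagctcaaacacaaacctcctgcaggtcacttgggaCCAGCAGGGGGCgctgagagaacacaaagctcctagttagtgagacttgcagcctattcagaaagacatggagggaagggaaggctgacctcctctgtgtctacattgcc
Ighv1-67 upstream, chr12:115605081-115605260: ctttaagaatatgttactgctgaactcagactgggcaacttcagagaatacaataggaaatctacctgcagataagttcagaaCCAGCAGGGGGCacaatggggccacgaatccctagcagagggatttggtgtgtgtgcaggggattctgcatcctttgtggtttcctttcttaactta

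A shared region below is a place where strict peaks of both replicates overlapped by at least 1 bp. The score is the authors' signal value of the peak, a count scaled by a factor that the files do not state, and the median over the 51709 shared regions of the whole genome was 1.94 (replicate 1) and 1.76 (replicate 2). The 3 loci were not alike. Igh, with 50 kb on either side, held 109 shared regions, or 38.3 per Mb, against 19.0 per Mb over the genome. Igk held 9 over 3271 kb, or 2.75 per Mb, and Igl held none. Of 10 kb windows, 30.8% held a shared region at Igh, 1.83% at Igk and 0 of 31 at Igl, against 12.9% over the genome.

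Among the genes themselves, 47 of 113 Igh V segments had a shared region within 1000 bp, as did Ighj4, Ighm and none of the 19 D segments. None of the 108 Igk genes and none of the 12 Igl genes had one. The share among genes of at most 1000 bp outside the antigen receptor loci was 7.63%. The Igh V count came to 27 when only the 50000 highest peaks of each replicate were kept. The count of 0 of 102 Igk V segments covers all such genes. They were measured in the same 2 libraries and are not independent draws, so no bound on a wider share was taken from it. In a bulk tissue, a site open in few cells and a site rarely open in many cells cannot be told apart.

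**Figure D1:**
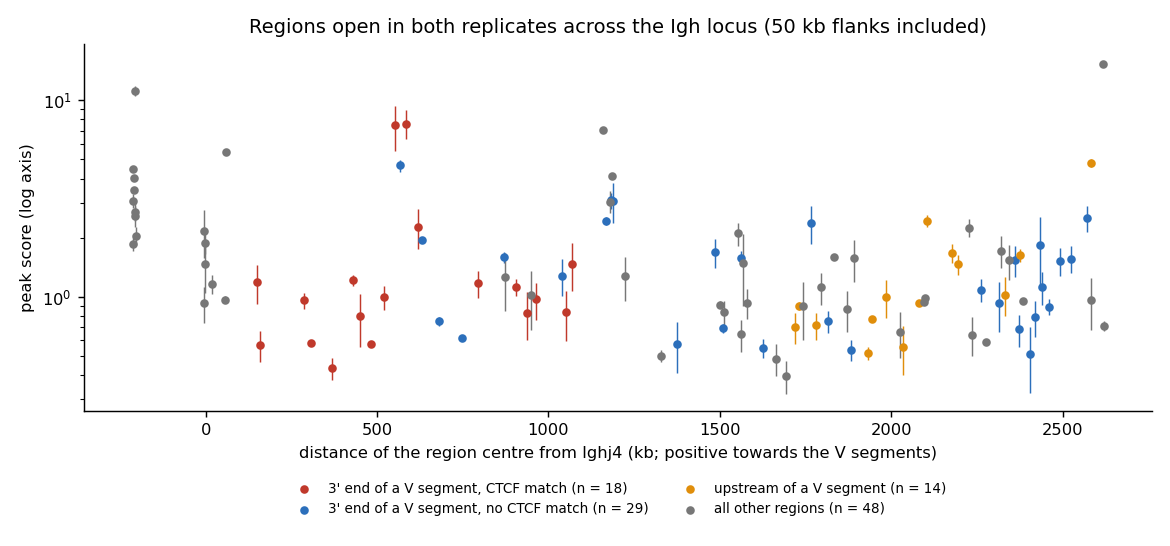
Peak score (log axis) of the 109 regions shared by both replicates at Igh, by distance of the region's centre from Ighj4 in kb. Points are means, vertical lines join the 2 replicates, and colours give the class of the region. Regions at 3′ ends with a CTCF match lie in the part nearer to Ighj4, and the regions upstream of V segments lie in the far part.

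The V segments of Igh span the far part of the locus and held 91 of its 109 regions. Their scores were low beside the rest of the genome, with a median of 0.956 in replicate 1 and 1.07 in replicate 2. Counted in steps of the score, which behave as whole counts, the lowest Igh region had 43 steps in replicate 1 and 53 in replicate 2, and the median had 151 and 194. Of the 91 regions, 47 were centred within 200 bp of the 3′ end of a V segment or V pseudogene, 14 lay 655 to 977 bp before the 5′ end of one, 27 were over 1000 bp from any, and 3 were elsewhere. This grouping, and the grouping by motif that follows, were chosen after the positions had been seen.

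The 3′ end is where these regions collected. Of the 47 V segments with a region within 1000 bp, the nearest region was centred within 200 bp of the 3′ end in 37 (78.7%), with a median of -27.5 bp, where negative values lie inside or before the segment. T cell receptor V segments served as the like genes that thymocytes do rearrange: 55 of 144 (38.2%) had a region within 1000 bp, but 20 of these 55 (36.4%) had it centred within 200 bp of the 3′ end, with a median of -561.5 bp. By these medians the regions sat at the end of the segment at Igh and farther upstream at T cell receptor loci. The number of Igh V segments whose nearest region was centred past the 3′ end was 17, and was 26 with replicate 2 alone and 19 with replicate 1 alone, while the median distance was -0.5 bp with replicate 2 alone and -21 bp with replicate 1 alone.

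The 47 regions at 3′ ends were of 2 kinds. In 18 a CTCF core consensus of 12 letters, searched on both strands with up to 1 mismatch, lay in the region, whose centre was 47.5 to 75.5 bp past the 3′ end with a median of 60 bp. The other 29 held no such match, had a median centre of -29.5 bp, and 26 of them held TGTGGT on either strand. Over all shared regions of the genome, 27.7% held the CTCF consensus with up to 1 mismatch and 20.9% held TGTGGT. The heptamer CACAGTG was in 9 of the 18 and 25 of the 29, against 7.4% over the genome, and the heptamer is part of the recombination signal at that place.

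The same split was then made from the reference sequence of all 113 V segments, with or without a peak. Its words and windows were chosen after the regions had been seen, so the shares below are no independent check. A CTCF match with up to 1 mismatch started within 100 bp past the 3′ end in 34 segments, at a median of base 61, and 15 of these (44.1%) had a shared region at the 3′ end. Another 47 segments had the RUNX word in the spacer, always at base 13, and 22 of these (46.8%) had one. Of the 32 segments with neither, 1 had one (3.13%), Ighv1-56. With the looser peak lists the 3 counts were 19, 32 and 4. The share of genes of at most 1000 bp outside the antigen receptor loci with a looser region within 1000 bp was 9.36%. That is a wider measure than a region centred within 200 bp of the 3′ end.

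**Figure D2:**
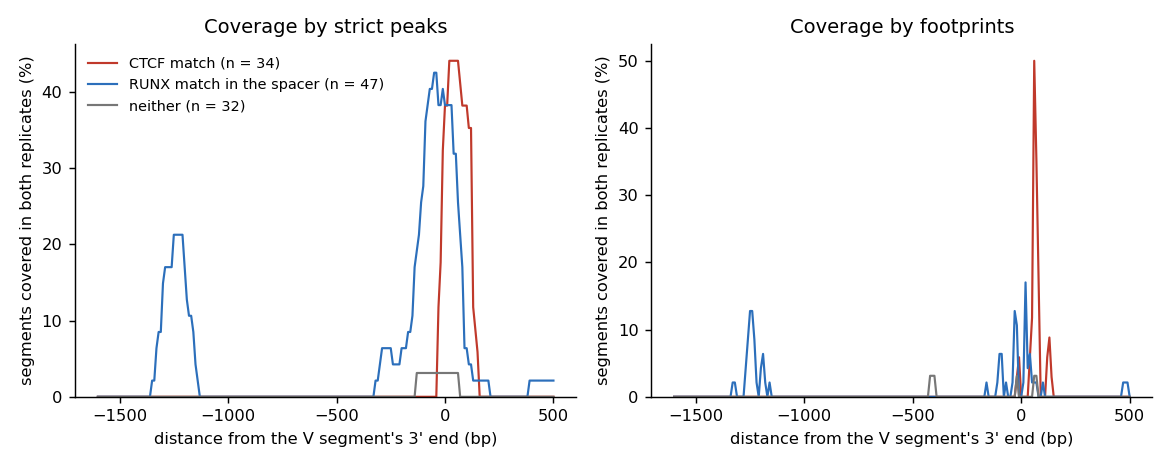
Share of Igh V segments (%) covered by strict peaks (left) and by footprints (right) of both replicates, by distance from the segment's 3′ end in bp, for segments with a CTCF match past the end, with the RUNX word in the spacer, or with neither. Peak coverage reached 44.1% from 20 to 60 bp past the end in the CTCF group and 42.6% at -50 to -40 bp in the RUNX group, which also had a second rise from the upstream regions, and stayed at or under 3.13% in the rest.

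Footprints are short stretches that are protected from cutting. Among segments with a region at the 3′ end, the CTCF match lay in a footprint of both replicates in 15 of 15, and the RUNX word in 7 of 22. Over all shared regions of the genome 88.8% of CTCF matches with up to 1 mismatch and 21.1% of TGTGGT matches did so, and a longer match has more bases to overlap. A footprint of both replicates lay somewhere in 108 of 109 Igh regions (99.1%), against 92.1% over the genome. Over all Igh regions, 32 of 34 exact CTCF matches lay in a footprint of both replicates, close to the genome's 96.5%. The segments in the RUNX group belong to families 1, 9 and 14, and the segments of 1 family resemble each other, so that these counts are not over independent sequences. Within family 1, 17 of 40 segments with the word had a region at the 3′ end, against 1 of 13 without it. However, 12 of these 13 lay in 1 stretch, 1237 to 1518 kb from Ighj4. In that stretch 0 of 12 segments without the word and 2 of 3 with it had a region at the 3′ end. Elsewhere 1 of 1 without it and 15 of 37 with it had one. Either place leaves few segments on 1 side, and the part of word and of position was not tested.

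Repeated sequence may limit these counts, which was not tested. Differences of the CAST/EiJ allele from the reference may limit them too, as motifs and unique words were read from the reference alone. Reads of that allele could not be examined apart, so its part in the counts and in the segments without a region was not tested. Of the words of 31 bases within 1000 bp of each segment, the median share that was unique in the genome was 68.3% for V segments with a region and 65.7% for those without. In the RUNX group it was 70.5% for segments with a region at the 3′ end and 48.6% for those without there, and the part of unplaced reads in this difference was not tested. The medians over whole groups were 74.2% with a CTCF match, 60.8% with the RUNX word and 65.7% with neither, and within family 1 the medians were 50.8% with the word and 49.6% without it. Within the regions at 3′ ends themselves, the median was 79.4% for the 18 with a CTCF match and 51.5% for the 29 without.

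By family, regions were spread unevenly, in part along the motif groups. Family 1, the largest, had 27 of 53 segments with a region within 1000 bp and 18 with one at the 3′ end. Families 2 and 5, which lie nearest to the D segments, had 4 of 9 and 3 of 10, all at the 3′ end, and a CTCF match past the end in 8 and 9 of their segments. Family 14 had 3 of 4 and family 11 had 2 of 2. Family 3 had 0 of 6 although 5 of its segments had a CTCF match, and family 8 had 0 of 9 with neither kind of match. Families 13, 15 and 16, of 1 segment each, had none.

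**Figure D3:**
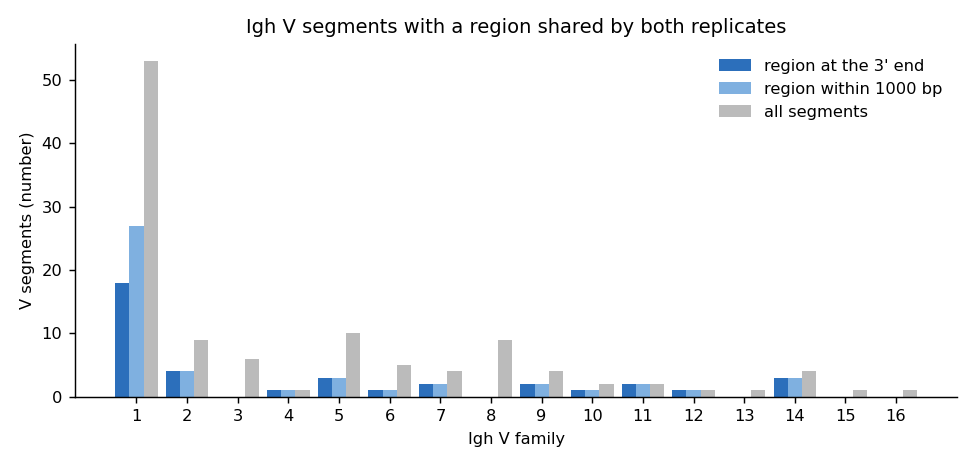
Number of V segments in each Igh V family with a shared region centred within 200 bp of the 3′ end (dark blue), with one within 1000 bp (light blue) and in all (grey). Families 3, 8, 13, 15 and 16 have none, and in family 1 the 2 blue bars stand at 18 and 27.

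Of the 15 V segments with the highest region within 1000 bp, 10 belonged to family 1, and the top 2 to the small families 11 and 14. Ighv11-1 scored 5.54 in replicate 1 and 9.37 in replicate 2 (7.46 ± 2.71, SD, n = 2), above 83.8% and 95.5% of the strict peaks of these replicates. The region was centred 58.5 bp past the segment and is shown because it was the highest at any V gene (minus strand, CTCF match with 1 mismatch in capitals).
Ighv11-1, chr12:113981721-113981920: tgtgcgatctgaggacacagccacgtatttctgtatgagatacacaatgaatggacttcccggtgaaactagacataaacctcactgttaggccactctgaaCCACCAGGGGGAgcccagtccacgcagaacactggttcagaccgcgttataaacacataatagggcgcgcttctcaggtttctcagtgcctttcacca
Ighv11-2, the only other member of family 11, scored 1.74 and 2.80 and had its match at the same base, 61. The pseudogene Ighv4-2, which is not among the 264 genes, had an exact match 73.5 bp past its end by the centre of the region and scored 6.33 and 8.92. These 3 were the highest regions of the CTCF kind, and each scored higher in replicate 2.

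In the RUNX group Ighv14-2 was highest with 4.99 in replicate 1 and 4.34 in replicate 2, and Ighv14-3 of the same family had 1.89 and 2.01. Ighv1-11 had 3.39 and 2.81, Ighv1-85 had 2.90 and 2.13, and Ighv1-54 had 2.88 and 1.85. Ighv1-12 had 3.78 and 2.38 at its 3′ end and a second region, with an exact CTCF match centred 479.5 bp past it, at 4.03 and 4.23. Of the 15, 13 had the RUNX word in the spacer, but the scores that rank Ighv1-12, Ighv1-67 and Ighv1-74 are those of regions away from the 3′ end with an exact CTCF match. Ighv1-67 had no region at its 3′ end, and Ighv1-74 had 0.807 and 0.553 there, against 1.75 and 1.51 in its upstream region. Ighv1-77, Ighv1-39, Ighv9-4, Ighv1-47 and Ighv1-82 scored 1.56 to 1.82 at the 3′ end on average over the replicates. Unique words within the 3′ end regions named here ranged from 21.5% at Ighv1-77, 30% at Ighv1-39 and 32.6% at Ighv1-85 to 100% at Ighv1-11 and Ighv1-47. The part of repeat copies in these scores was not tested.

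Along the locus, the first V segment with a shared region was Ighv5-2, 150 kb from Ighj4, with 0.918 in replicate 1 and 1.45 in replicate 2, and the last was Ighv1-85, 2571 kb away. Between 0 and 400 kb from Ighj4, 5 of 16 V segments had a region, between 400 and 800 kb 11 of 20, and between 1200 and 1600 kb 3 of 18. In the last stretch, from 2400 kb on, 7 of 9 had one. The share did not fall steadily with distance from the J segments. Median uniqueness was 69.9%, 83.5%, 53.0% and 67.6% in these 4 stretches.

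Upstream of V segments another kind of region was found, at 10 genes of family 1 and 4 pseudogenes in the far part of the locus. All 14 of them held the exact CTCF consensus, against 9.2% of shared regions of the genome, and in 13 the match lay in a footprint of both replicates. Their centres lay at -1391.5 to -1200.5 bp from the 3′ end. The highest scored 4.60 in replicate 1 and 5.01 in replicate 2 and belonged to the pseudogene Ighv1-86, and Ighv1-67, whose region is printed above, had 1.48 and 1.86. A median of 39.0% of their words was unique, so these 14 sequences are not independent of each other.

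Of the 27 regions among the V segments that lay over 1000 bp from any of them, 22 held a CTCF match with up to 1 mismatch. The highest lay 3338 bp from Ighv1-9, at chr12:114587341-114587540, with 7.0 in replicate 1 and 7.11 in replicate 2. A set of 10 lay upstream of the family 8 segments, 3636 to 23598 bp away, and all 10 held a CTCF match, 7 of them with CTTTGA, the core word of TCF7 and LEF1, which 14.9% of shared regions of the genome held. In B cell precursors, repeats upstream of family 8 segments are known as PAIR elements and bind CTCF, E2A and PAX5. Whether these 10 regions are those elements was not tested, and a median of 36.8% of their words was unique. Their scores ran from 0.393 to 2.01 in replicate 1 and from 0.571 to 2.47 in replicate 2.

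The CTCF matches among the V segments all pointed one way. With up to 1 mismatch, 55 of 55 best matches read on the minus strand, as did all 32 exact ones. In the cluster of regions past Igha, at the other end of the locus, 4 of 5 matches read on the plus strand, 2 of them exact. The other, with 1 mismatch, read on the minus strand and lay in the highest region of that cluster (11.9 in replicate 1 and 10.5 in replicate 2). Over the whole of Igh 34 of 109 regions (31.2%) held the exact consensus, against 9.2% over the genome, and 61 (56.0%) held it with up to 1 mismatch, against 27.7%.

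The replicates differed by motif. At the 18 regions at 3′ ends with a CTCF match, replicate 2 was higher in 18, by a median of 0.51 on the log2 scale. At the 29 without a match it was higher in 3, with a median difference of -0.39. The same split ran through the whole genome, where replicate 2 was higher in 66.4% of the regions with a CTCF match of up to 1 mismatch, with a median of 0.17, and in 19.8% of the others, with a median of -0.34. The order of segments of the 2 kinds could turn with it: Ighv11-2, with a CTCF match, stood below Ighv1-54, with the RUNX word, in replicate 1 (1.74 and 2.88) and above it in replicate 2 (2.80 and 1.85). Replicates correlated with Pearson's r = 0.887 over the 109 log2 scores at Igh and 0.944 over the genome, given as descriptions over sites that share 2 libraries.

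**Figure D4:**
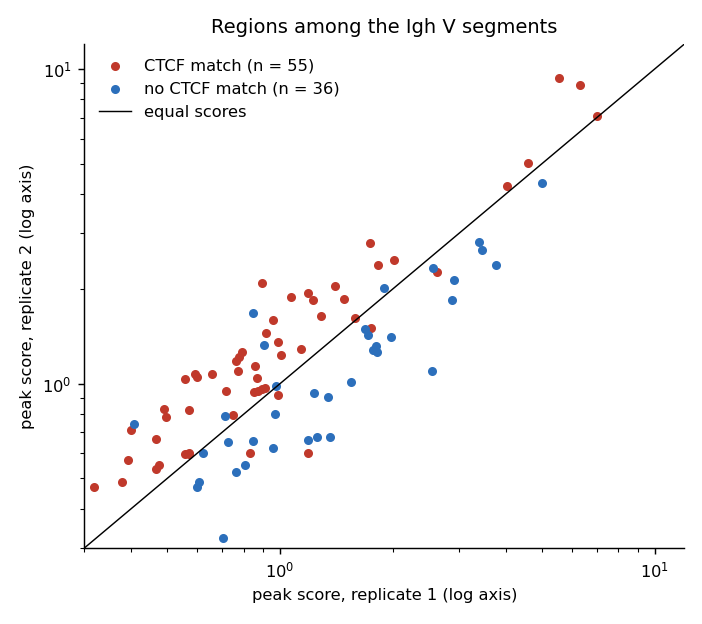
Peak score in replicate 2 against replicate 1 (log axes) for the 91 regions among the Igh V segments, with (red, n = 55) and without (blue, n = 36) a CTCF match of up to 1 mismatch. The line marks equal scores, and most red points lie above it and most blue points below it.

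At the constant end of Igh the known control elements were open in part. A cluster of 9 shared regions lay 30.3 to 38.6 kb past the 3′ end of Igha, where a group of CTCF sites that bounds the locus is known. All of its scores were 1.71 or higher in replicate 1 and 1.99 or higher in replicate 2. The highest scored 11.9 in replicate 1 and 10.5 in replicate 2 (11.2 ± 0.963, SD, n = 2), above 94.8% and 96.8% of the strict peaks, and is the highest region of Igh outside the promoter of Zfp386, a neighbouring gene in the 5′ flank (14.8 and 15.9). It is shown with its CTCF match with 1 mismatch in capitals (minus strand).
Region past Igha, chr12:113222121-113222320: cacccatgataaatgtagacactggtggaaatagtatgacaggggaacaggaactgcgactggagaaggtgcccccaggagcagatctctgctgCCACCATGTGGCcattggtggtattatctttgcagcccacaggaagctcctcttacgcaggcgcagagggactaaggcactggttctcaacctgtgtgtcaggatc
Between this cluster and Igha, 30.3 kb held no peak of the strict or looser list and no footprint in either replicate. The 3′ regulatory region, a set of enhancers known to drive heavy chain genes in mature B cells and plasma cells, is known to lie in this interval. Only 51 bases in replicate 1 and 43 bases in replicate 2 were listed at a false discovery rate below 0.05, and 72.4% of the words there were unique.

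From Igha to Ighm, 168 kb with the switched constant genes, there was no shared strict region. The looser lists shared 3, in an intron of Igha, in an intron of Ighd and over an exon of Ighm. Ighe, Ighg1, Ighg2b, Ighg2c and Ighg3, the constant genes of switched isotypes, had no shared region in either list within 1000 bp.

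The intron between Ighj4 and Ighm, which holds the enhancer Eμ and the switch repeat of Ighm, was open over much of its length. Of its 5.78 kb, 76.1% of bases in replicate 1 and 56.5% in replicate 2 were listed at a false discovery rate below 0.05, against 1.44% and 1.32% of the genome. Its 4 shared regions scored 1.12, 2.76, 1.90 and 2.08 in replicate 1 and 0.735, 1.57, 1.05 and 1.65 in replicate 2, going from Ighm to Ighj4, and all 4 were lower in replicate 2. The second is 1640 bp long with 56.0% unique words, and the part of repeat copies in its score was not tested. The region next to Ighj4, 873 bp past it, held an octamer ATGCAAAT (1.07% of shared regions of the genome), a YY1 word GCCATNTT (5.38%), E-boxes CAGCTG (21.8%) and CAGGTG (28.8%), TGTGGT and an ETS word AGGAAG (39.4%), all searched on both strands and shown in capitals (minus strand). Octamer, YY1 and E-box words are known parts of Eμ.
Ighj4 to Ighm intron, chr12:113427401-113427640: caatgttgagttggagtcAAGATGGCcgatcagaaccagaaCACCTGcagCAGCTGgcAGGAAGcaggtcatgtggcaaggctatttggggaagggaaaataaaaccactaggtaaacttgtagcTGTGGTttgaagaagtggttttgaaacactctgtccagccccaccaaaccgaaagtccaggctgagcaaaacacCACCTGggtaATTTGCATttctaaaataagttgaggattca
This region and the one 970 bp from Ighm are what gave Ighj4 and Ighm their calls, and neither gene had one with a window of 500 bp.

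The J segments themselves differed between the replicates. From Ighj4 to Ighj1, 96.7% of bases were listed in replicate 1 and 0% in replicate 2. Strict peaks there numbered 3 in replicate 1, with scores of 0.570, 0.711 and 0.548, and 0 in replicate 2. All words of this stretch were unique. Thymocyte promoters were also lower in replicate 2, with a median of 4.61 against 8.32 in replicate 1 over 13 of 14 marker genes with a region, and B cell promoters had medians of 3.38 and 4.44 over 8 of 16. The part of either in the J difference was not tested.

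Across the D segments from Ighd4-1 to Ighd1-1, 1 region was shared, chr12:113446141-113446340, 1.87 kb past Ighd3-2, with 1.30 in replicate 1 and 1.03 in replicate 2. Replicate 1 had 7 looser peaks, 10 footprints and 2.81% of bases listed there, and replicate 2 had 1, 3 and 0.503%, a difference in the same direction as at the J segments. Ighd4-1 had a strict peak within 1000 bp in replicate 1 alone. Many D segments lie in repeated sequence, and 52.6% of words from Ighd4-1 to Ighd1-1 were unique. Upstream of Ighd1-1, between the D segments and the V segments, 2 regions were shared. One, 2.97 kb away, scored 1.01 and 0.924 and held a CTCF match with 1 mismatch on the minus strand. The other, 5.59 kb away, scored 5.36 and 5.52 and had its best CTCF match, with 2 mismatches, on the plus strand, a looseness that 56.3% of shared regions of the genome reach. IGCR1, a pair of divergent CTCF sites known in B cell precursors to keep V segments apart from D segments, is known to lie at this place. The higher region also held GAGGAAGT, a word of PU.1, a factor of B and myeloid cells, which 4.2% of shared regions of the genome held. It is printed with the best CTCF match in capitals (minus strand).
Upstream of Ighd1-1, chr12:113487781-113488000: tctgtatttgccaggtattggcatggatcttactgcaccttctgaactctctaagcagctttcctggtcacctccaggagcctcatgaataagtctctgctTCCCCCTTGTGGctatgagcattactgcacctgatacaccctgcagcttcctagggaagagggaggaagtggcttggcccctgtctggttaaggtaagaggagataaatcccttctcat

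At Igk the sites that were open lay outside the V segments. The 18.4 kb between Igkv3-1 and Igkj1, where the elements Cer and Sis that steer kappa rearrangement are known, held 2 shared regions. One, 13.0 kb before Igkj1 at chr6:70709381-70709580, scored 1.93 in replicate 1 and 1.65 in replicate 2, and its CTCF match with 1 mismatch read on the minus strand. The other, 8.04 kb before Igkj1, scored 4.53 and 3.01 (3.77 ± 1.07, SD, n = 2), with a match with 1 mismatch on the plus strand, shown in capitals (plus strand).
Igkv3-1 to Igkj1, chr6:70714301-70714520: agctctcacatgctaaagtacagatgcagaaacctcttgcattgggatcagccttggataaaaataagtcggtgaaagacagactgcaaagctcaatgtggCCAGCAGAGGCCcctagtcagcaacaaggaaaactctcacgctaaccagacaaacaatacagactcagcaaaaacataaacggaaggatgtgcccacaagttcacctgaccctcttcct
In this interval 12.7% of bases were listed in replicate 1 and 3.64% in replicate 2.

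The known kappa enhancers showed nothing in these lists. From Igkj1 to Igkc and on to 25 kb past Igkc, an interval that holds the intronic and 3′ kappa enhancers, there was no peak of either list, no footprint and no listed base in either replicate, although 92.2% or more of the words in each of its stretches were unique. Farther out, 5 shared regions lay 25.6 to 41.9 kb past Igkc. The highest of them, at chr6:70768861-70769060 in an intron of Rpia, a gene of the pentose phosphate pathway, scored 4.16 and 3.39 and held an exact CTCF match. The last 2 of the 9 regions lay in the flank beyond the outermost V segment, at 1.52 and 2.15 and at 1.69 and 1.34.

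Across the 3149 kb of kappa V segments, 0.0305% of bases were listed in replicate 1 and 0.0608% in replicate 2. At the Igh V segments these shares were 1.79% and 1.81%, at a like share of unique words, 59.0% at Igh and 56.4% at Igk. No strict peak was called among the kappa V segments in replicate 1 and 2 were called in replicate 2, with scores of 0.632 and 0.438. The looser lists shared 3 regions there, 2461 to 11934 bp from the nearest V segment, with scores of 0.252 to 0.452 in replicate 1 and 0.438 to 0.632 in replicate 2.

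Igl had 1 place to report. The looser lists shared a region at chr16:19146701-19146880, 61200 bp from Iglv1, with 0.230 in replicate 1 and 0.383 in replicate 2, which held an exact CTCF match and was called strictly in replicate 2 alone. Footprints at Igl numbered 0 in replicate 1 and 2 in replicate 2, against 462 and 514 at Igh and 46 and 63 at Igk.

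**Figure D5:**
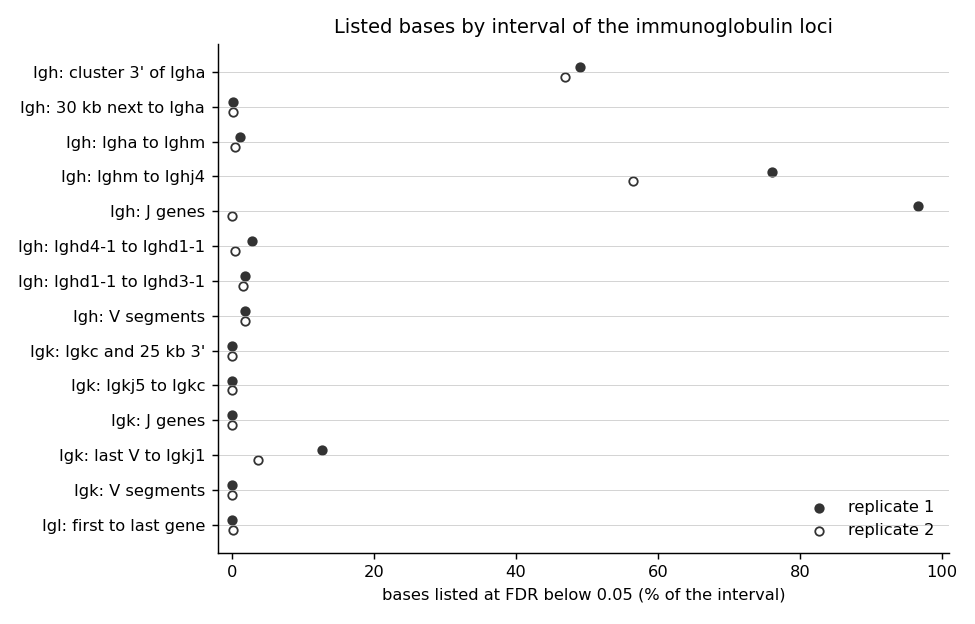
Share of bases (%) listed at a false discovery rate below 0.05 in each interval of Igh, Igk and Igl, for replicate 1 (filled) and replicate 2 (open). The J genes of Igh stand at 96.7% in replicate 1 and 0% in replicate 2. Among the other intervals, the Ighm to Ighj4 intron and the cluster past Igha stand highest in both replicates. The interval from the J genes of Igk past Igkc stands at 0% in both.

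B cells occur in the thymus. Of 16 B cell marker genes 8 had a shared region at a promoter, near the share of 58.9% among protein-coding genes. Those with one included the B lineage factors Pax5 (4.87 in replicate 1 and 4.08 in replicate 2) and Ebf1 (5.64 and 4.31), the surrogate light chain gene Vpreb1 (6.40 and 4.12) and the complement receptor gene Cr2 (5.48 and 4.69). Cd79a, Cd79b and Ms4a1 were among the 8 without one. Of 4 plasma cell markers 3 had one, and Jchain had none. The part of B cells in the regions of the immunoglobulin loci was not tested.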

How the data were processed

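DNase-seq of 2 thymus samples was analysed from the authors' interval files, made for each sample on mm10, per the labels. Each replicate has a strict and a looser peak list, deposited with a signal score for every peak. All strict scores (63832 and 67929 peaks) were whole multiples of a step of 0.00741 in replicate 1 and 0.00608 in replicate 2, within 0.05 of a step. By their values, the deposited tracks of false discovery rates (FDR, which is not a p-value) hold only stretches below 0.05. Footprints were deposited with 0.01 in every row, so that only where they lie was used. For the aligner, peak caller, footprint tool and depth, the value is not given in the sources used here.

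Overlapping peaks of a list were joined. Gene positions were those of GENCODE M21, and the sequence was GRCm38.p6. Motifs were searched on both strands with Python 3.11.15, numpy 2.4.6 and pandas 2.3.3, and footprints counted when they overlapped a match by 1 bp. Peak joining and motif search were tested on simulated data. The 15 Igh V segments with the highest mean score, the first and last with a region, every D, J or C gene with one and every region over 1000 bp from V segments were to be named or counted. Members and lists were chosen with earlier results of these data known. The alternatives changed the peak list, the peak number, the overlap, the window, the flank, the motif and the replicates.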

Additional observations from a re-analysis of the deposited data

How the results depend on the processing

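The shared regions at Igh numbered 73 to 150 over the alternatives run, against 109, and the exact CTCF matches in a footprint 27 to 34, against 32. The V segments with a region numbered 27 with the 50000 highest peaks, against 47, and 38 to 63 otherwise. The Igk regions numbered 14 in the looser lists and 2 without flanks, against 9, and 10 to 16 with 1 replicate alone. Igl had 1 in the looser lists and 0 to 1 with 1 replicate alone. The Igh D, J and C genes with a region numbered 4 in the looser lists, 1 with the 50000 highest peaks and with 50% reciprocal overlap, 0 and 6 with windows of 500 and 2500 bp, and 3 to 7 with 1 replicate alone, against 2. Igk and Igl V segments stayed at 0 in each alternative run. Regions with a CTCF match numbered 61 with 1 mismatch, against 34.

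V segments with the nearest region past the 3′ end numbered 27 in the looser lists, 9 with the 50000 highest peaks and 19 to 26 with 1 replicate alone, against 17. Their median distance was -13 bp in the looser lists, -2 bp with a window of 500 bp and -21 to -0.5 bp with 1 replicate alone. In the groups by motif, an alternative chosen after seeing the data, the 50000 highest peaks gave 8 CTCF, 13 RUNX and 0 other segments, the looser lists 4 other segments, and 1 replicate alone 2 to 3. Where a value moved, the cause was not tested, beyond the smaller or larger set that the alternative itself takes. The 140 single-site scores without 1 replicate stayed within 1 SD, as 2 values must. No paired analysis was possible because the study has 1 group.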
